A study of Mus musculus with 54 samples.

Results

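The genes described here are Gclc, Gclm, Gss, Gpx1, Sod1, Sod2, Txnrd1, Srxn1, Hmox1 and Nqo1, which make or use glutathione and thioredoxin or break down superoxide, peroxides, quinones and heme. They were taken by symbol from the count and TPM tables, and 10 of 10 were found among 25149 genes. RNA-seq had been done on single sides of the follicle wall, dissected from antral follicles grown in culture. Secondary follicles had been freed with enzymes from ovaries of CD-1 mice aged 14 to 16 days. They were grown to the antral stage for 8 days in alginate (a hydrogel that holds their shape) and kept for 12 h in maturation medium with serum, EGF and FSH. Control follicles received no hCG, a hormone that acts on the LH receptor, and gave 15 putative unruptured and 14 putative ruptured sides, the site of rupture being predicted from swelling of the antral cavity and from image analysis. Follicles post-hCG gave 12 unruptured and 13 ruptured sides. All 4 groups shared strain, age range and culture, and the labels name no allele or other treatment. The labels do not say which sides came from the same follicle or mouse, so the p-values measure the spread between these libraries.

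The 54 libraries held 1497071 to 2834734 counts (median 2157092). The labels call the tissue cumulus-oocyte complex, whereas the study's methods remove that complex at dissection. The 8 oocyte markers sought had a median summed level of 0 to 0.2 TPM per group, with 157 TPM in the highest library. The 8 granulosa markers had median summed levels of 2615, 9189, 1390 and 1155 TPM on the putative unruptured, putative ruptured, unruptured and ruptured sides. Of those tested, 6 of 7 were higher on the putative ruptured side and 2 of 4 on the ruptured side, and with hCG 4 of 7 fell and 3 rose on the unruptured side and 4 of 7 fell and 1 rose on the ruptured side. Granulosa levels thus moved with side and hCG as some of the members did, and their part in the members' differences was not tested. Theca markers were present too, at group medians of 8.82 to 774 TPM, isolation having removed much of a layer that the study describes as growing back in culture. In such bulk tissue, fewer cells of a type and less RNA per cell cannot be told apart.

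Glutathione is made in 2 steps. Glutamate-cysteine ligase, formed by the catalytic subunit Gclc and the modifier subunit Gclm, joins glutamate to cysteine, and glutathione synthetase (Gss) adds glycine. Glutathione peroxidase 1 (Gpx1) spends glutathione to reduce peroxides, thioredoxin reductase 1 (Txnrd1) keeps thioredoxin reduced, and sulfiredoxin (Srxn1) restores overoxidised peroxiredoxins. Superoxide dismutases turn superoxide into hydrogen peroxide in the cytosol (Sod1) and in mitochondria (Sod2). Heme oxygenase 1 (Hmox1) opens the heme ring, and Nqo1 reduces quinones. Many of these genes are known targets of the transcription factor NRF2 (Nfe2l2), which KEAP1 holds back and which binds the antioxidant response element. In the ovary, reactive oxygen species form as the follicle ovulates and begins to luteinize.

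Promoter windows from RefSeq (GRCm38.p6, 250 bases before the start site) were held for 8 of the 10 genes. The core of the antioxidant response element, searched on both strands as TGACNNNGC, lay in a window of Gclm, Sod1 and Txnrd1, which is 3 of the 10 windows held for these genes, against 10.2% of all 32851 windows. Its other common form, TGAGNNNGC, added after the first search, lay in the window of Srxn1 alone among them and in 14.4% of all windows. The windows of Gclm and Srxn1 are shown with each match in capitals, and that of Gss, without a match to either form, is shown because Gss and Gclm went opposite ways with hCG. These matches describe letters only.
Gclm, chr3:122245307-122245556, plus strand: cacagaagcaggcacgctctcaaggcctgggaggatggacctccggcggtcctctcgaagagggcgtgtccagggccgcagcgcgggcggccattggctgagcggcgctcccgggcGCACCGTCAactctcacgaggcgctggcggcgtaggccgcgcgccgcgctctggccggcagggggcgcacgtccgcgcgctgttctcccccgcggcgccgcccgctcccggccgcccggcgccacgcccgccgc
Srxn1, chr2:152105274-152105523, plus strand: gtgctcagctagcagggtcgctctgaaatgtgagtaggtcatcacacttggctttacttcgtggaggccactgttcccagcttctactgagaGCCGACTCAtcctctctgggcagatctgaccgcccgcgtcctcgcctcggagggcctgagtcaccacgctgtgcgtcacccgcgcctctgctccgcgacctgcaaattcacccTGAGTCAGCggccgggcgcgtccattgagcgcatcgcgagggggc
Gss, chr2:155592811-155593060, minus strand: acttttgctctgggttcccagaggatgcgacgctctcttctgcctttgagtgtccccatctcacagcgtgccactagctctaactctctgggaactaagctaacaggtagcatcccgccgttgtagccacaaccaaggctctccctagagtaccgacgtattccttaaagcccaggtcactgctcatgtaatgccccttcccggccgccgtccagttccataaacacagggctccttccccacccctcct
The match in Gclm began 134 bases before the start site, on the minus strand. Those in Srxn1 began 45 and 158 bases before it, on the plus and minus strands, and the nearer one overlaps the AP-1 letters TGAGTCA, which 4.46% of all windows held.

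Levels per length differed widely between the genes. Over the 54 libraries, mean TPM was 584 for Sod1, 56.4 for Gpx1, 17.1 for Sod2, 15.9 for Txnrd1, 14.4 for Gclm, 12.2 for Gss, 10.9 for Hmox1, 2.02 for Srxn1, 1.85 for Gclc and 0.412 for Nqo1. Sod1 was the most abundant member in these sides, whereas Srxn1, Gclc and Nqo1 were the least abundant. The ranges of Sod2, Txnrd1, Gclm, Gss and Hmox1 overlapped, so their order is not firm.

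**Figure D1:**
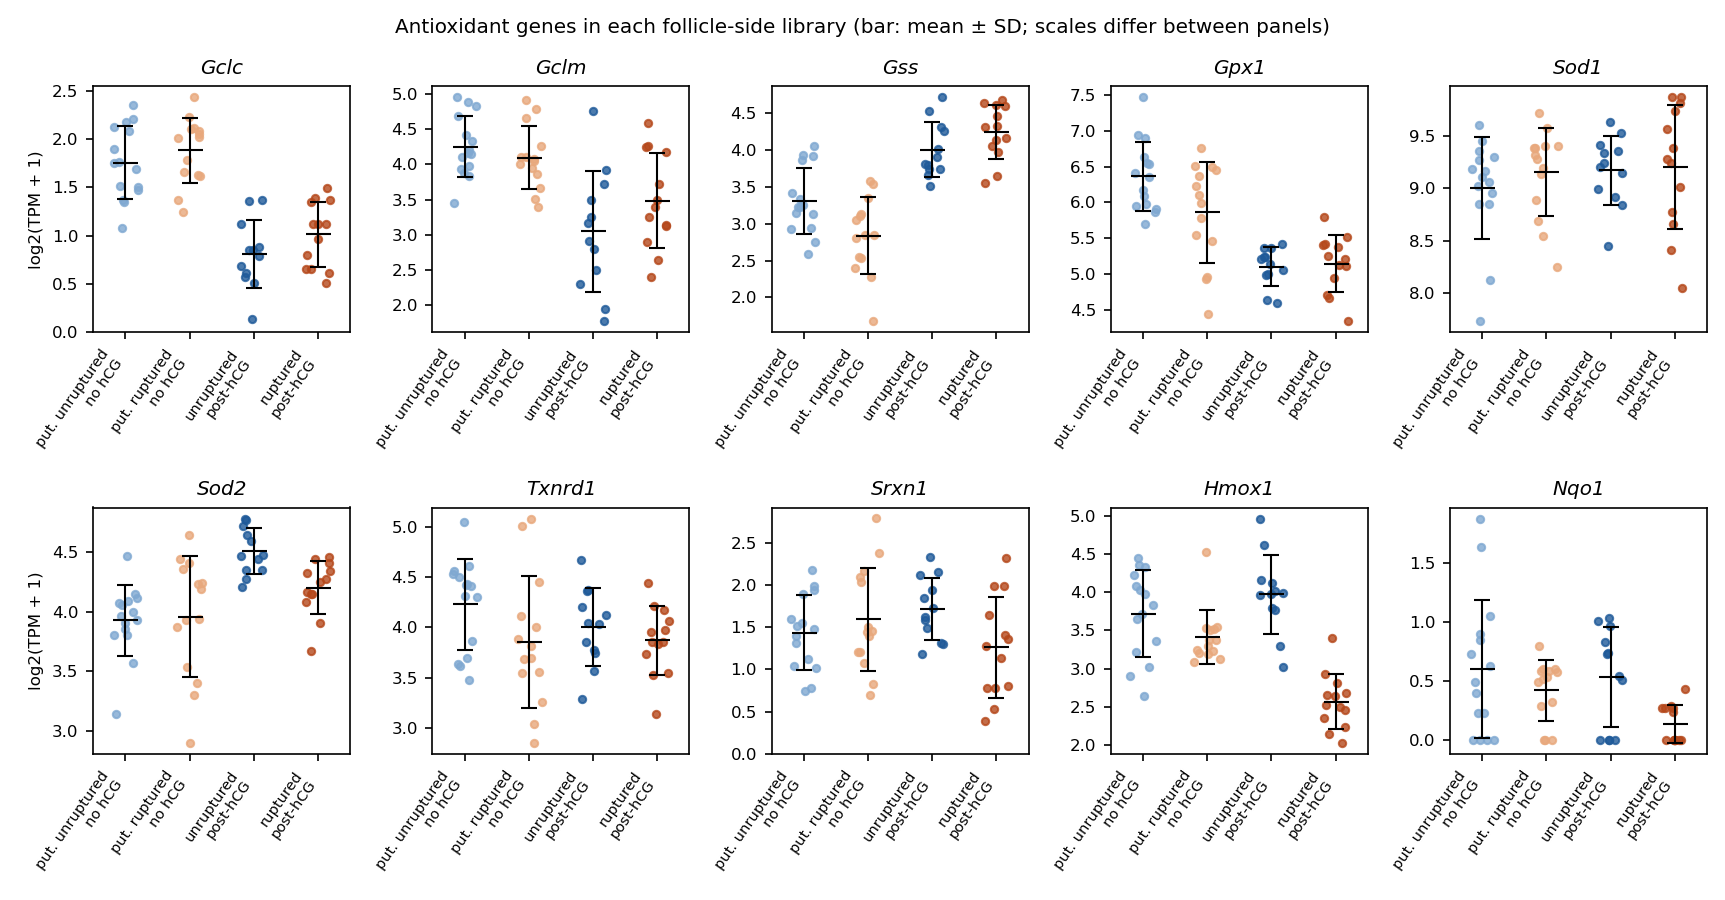
Level of each gene as log2(TPM + 1) in the 54 follicle-side libraries, by group (points: libraries; bars: mean ± SD; n = 15, 14, 12 and 13 from left to right; each panel has its own scale). Gclc and Gpx1 sit lower in both post-hCG groups, Gss sits higher in them, and Hmox1 is lowest in the ruptured post-hCG group.

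The comparison of media on each side asked which genes hCG moved. On the unruptured side 4 of the 9 members tested fell post-hCG and 2 rose, where 52.9% of 9320 genes were called in either direction (27.6% fell, 25.3% rose) at an FDR of 0.05. On the ruptured side 4 of 9 fell and 2 rose, where 60.0% of 8531 genes were called (30.4% fell, 29.6% rose). The share of members called was therefore near that of all genes, and the results lie in which members went which way. Changes are log2 fold changes of counts, tested by quasi-likelihood in edgeR and adjusted over all genes tested (Benjamini-Hochberg FDR). On both sides Gclc, Gclm and Gpx1 fell and Gss and Sod2 rose. Txnrd1 fell on the unruptured side and Hmox1 on the ruptured side.

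Gclc (chr9:77754535-77794485, plus strand of GRCm38), the catalytic subunit of the rate-limiting ligase, lay between 1.12 and 4.09 TPM around a median of 2.37 on the putative unruptured side and between 1.37 and 4.40 TPM around a median of 3.06 on the putative ruptured side. Post-hCG it lay between 0.10 and 1.59 TPM around a median of 0.765 on the unruptured side and between 0.43 and 1.82 TPM around a median of 1.18 on the ruptured side. On each side every post-hCG library lay below the median of the matching control group, and 9 of the 12 unruptured and 9 of the 13 ruptured libraries lay below all controls. With hCG Gclc fell by 1.66 (SE 0.23, FDR = 2.6e-07) on the unruptured side and fell by 1.21 (SE 0.18, FDR = 5.51e-07) on the ruptured side. Counts were few, with a median of 7.5 per unruptured and 14 per ruptured library post-hCG, and the expression filter left Gclc out of the comparison of sides post-hCG. In the comparisons of media it therefore passed the filter through the control libraries, where it was higher.

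Gclm (chr3:122245557-122270732, plus strand), the modifier subunit of the same ligase, lay between 9.99 and 30.0 TPM around a median of 16.9 on the putative unruptured side and between 2.42 and 26.2 TPM around a median of 7.25 on the unruptured side post-hCG. Its ruptured side lay between 9.48 and 29.2 TPM around a median of 15.7 without hCG and between 4.26 and 23.1 TPM around a median of 9.53 with it. The groups overlapped, but 11 of 12 unruptured and 9 of 13 ruptured post-hCG libraries lay below their control median. Gclm fell by 1.47 (SE 0.16, FDR = 2.19e-09) on the unruptured side and fell by 0.58 (SE 0.17, FDR = 0.0046) on the ruptured side. The annotation places a processed transcript and a pseudogene within its span, and reads from them cannot be told apart by strand in these libraries.

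Gss (chr2:155563181-155592810, minus strand), which completes glutathione, went the other way. It lay between 5.02 and 15.6 TPM around a median of 8.39 on the putative unruptured and between 10.4 and 25.3 TPM around a median of 13.5 on the unruptured side post-hCG. Its ruptured side lay between 2.20 and 10.96 TPM around a median of 6.17 without hCG and between 10.7 and 24.5 TPM around a median of 18.8 with it. All 13 ruptured post-hCG libraries exceeded the control median and 12 exceeded every control library. Gss rose by 0.85 (SE 0.14, FDR = 6.7e-06) on the unruptured side and by 1.60 (SE 0.11, FDR = 1.23e-14) on the ruptured side. Its gene shares 395 of 5915 exonic bases (6.68%) with Acss2, an acetyl-CoA synthetase on the opposite strand, and the libraries do not mark strand. Acss2, looked up because of this overlap after values were seen, rose by 2.11 (FDR = 7.59e-12) and 1.39 (FDR = 6.16e-06) on the unruptured and ruptured sides, and its part in the Gss counts was not tested.

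Gpx1 (chr9:108338903-108340343, plus strand), the main cytosolic glutathione peroxidase, lay between 51.1 and 176 TPM around a median of 80.5 on the putative unruptured side and between 23.2 and 42.0 TPM around a median of 35.1 on the unruptured side post-hCG. Those ranges did not overlap, which held for no other member in this comparison and for 5.11% of the 9888 genes averaging 1 TPM or more. Its ruptured side lay between 20.7 and 107 TPM around a median of 65.2 without hCG and between 19.3 and 54.7 TPM around a median of 36.1 with it. All 13 ruptured post-hCG libraries lay below the control median, with overlapping ranges, and 6.92% of the 9888 genes had ranges that did not overlap here. Gpx1 fell by 1.33 (SE 0.16, FDR = 1.22e-08) on the unruptured side and fell by 0.70 (SE 0.18, FDR = 0.0014) on the ruptured side.

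The superoxide dismutases differed. Sod2 (chr17:13006846-13040063, plus strand), the mitochondrial enzyme, lay between 7.82 and 21.2 TPM around a median of 14.7 on the putative unruptured side and between 17.5 and 26.6 TPM around a median of 21.2 on the unruptured side post-hCG, where all 12 libraries exceeded the control median. On the ruptured side it lay between 6.46 and 24.1 TPM around a median of 15.8 without hCG and between 11.8 and 21.0 TPM around a median of 18.02 with it, within the control range. Sod2 rose by 0.53 (SE 0.11, FDR = 9.08e-05) on the unruptured side and by 0.40 (SE 0.12, FDR = 0.0046) on the ruptured side. The second call was lost with library totals as the only scaling (0.07, FDR = 0.63), which put the median of all genes at -0.33, and with limma on log2(TPM + 1) (0.24, FDR = 0.19), where it was -0.14, against -0.0012 in the counts. Sod1 (chr16:90220754-90226329, plus strand), the cytosolic enzyme, had group medians of 549, 627, 595 and 619 TPM on the putative unruptured, putative ruptured, unruptured and ruptured sides, and lowest and highest libraries of 211 and 933 TPM. Its groups overlapped throughout, and its differences with hCG of 0.21 (SE 0.15, FDR = 0.27) and 0.16 (SE 0.16, FDR = 0.4) passed in no setting and turned to -0.013 and -0.16 with library totals only.

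Of the genes serving thioredoxin, Txnrd1 fell on the unruptured side and Srxn1 passed on neither. Txnrd1 (chr10:82833951-82897712, plus strand) lay between 10.2 and 32.2 TPM around a median of 20.4 on the putative unruptured side and between 8.73 and 24.6 TPM around a median of 15.5 on the unruptured side post-hCG. It lay between 6.21 and 33.0 TPM around a median of 12.5 on the putative ruptured side and between 7.78 and 20.8 TPM around a median of 13.5 on the ruptured side. The unruptured post-hCG libraries were lower, 11 of 12 below the control median, and the ruptured groups lay over each other. Txnrd1 fell by 0.42 (SE 0.13, FDR = 0.0052) on the unruptured side, a call that limma on log2(TPM + 1) did not make (-0.23, FDR = 0.29). On the ruptured side its difference of 0.18 (SE 0.13, FDR = 0.24) turned to -0.16 with library totals only. Srxn1 (chr2:152105516-152111376, plus strand) had group medians of 1.78, 1.73, 2.20 and 1.43 TPM on the putative unruptured, putative ruptured, unruptured and ruptured sides, from as few as 3 counts in a library. Its differences with hCG were 0.24 (SE 0.18, FDR = 0.25) on the unruptured side and 0.11 (SE 0.24, FDR = 0.71) on the ruptured side, and the latter was -0.33 on log2(TPM + 1) and -0.22 with library totals only.

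Hmox1 (chr8:75093621-75100589, plus strand) had the largest log2 fold change between the sides post-hCG among the members tested. It lay between 5.25 and 20.8 TPM around a median of 13.3 on the putative unruptured side, between 7.48 and 22.0 TPM around a median of 9.07 on the putative ruptured side and between 7.10 and 30.1 TPM around a median of 14.8 on the unruptured side post-hCG. On the ruptured side post-hCG it lay between 3.09 and 9.52 TPM around a median of 4.74, where all 13 libraries were below the unruptured median and 12 were below every unruptured library. On the ruptured side, with hCG, Hmox1 fell by 0.81 (SE 0.16, FDR = 3.57e-05), while its difference on the unruptured side was 0.22 (SE 0.20, FDR = 0.36).

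**Figure D2:**
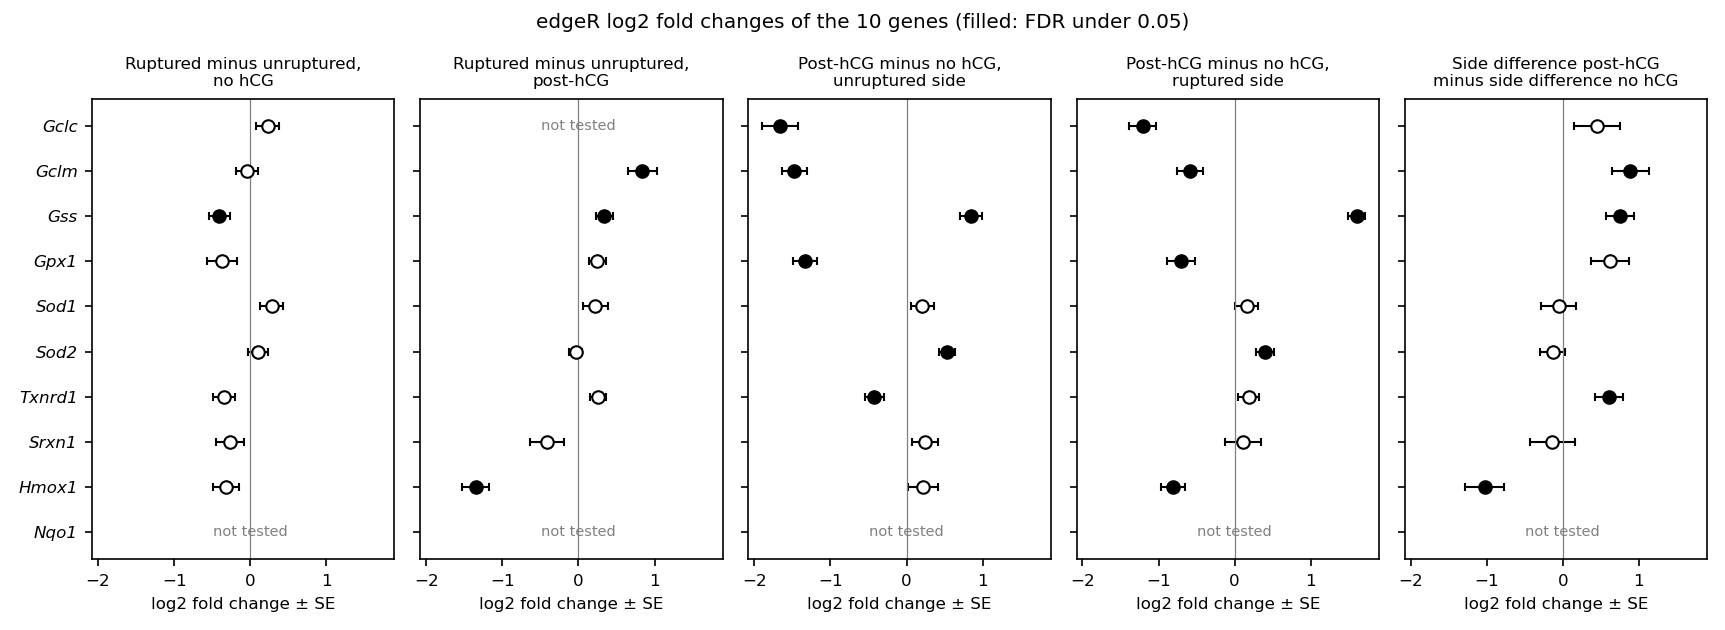
edgeR log2 fold changes ± SE of the 10 genes (y axis) in 5 comparisons (panels), filled where the FDR is under 0.05. Gclc, Gclm and Gpx1 lie to the left and Gss and Sod2 to the right of 0 with hCG on both sides, and Hmox1 lies at -1.35 on the ruptured against the unruptured side post-hCG. Under another scaling the sign changes for Sod1 with hCG on both sides, for Txnrd1 and Srxn1 with hCG on the ruptured side, for Txnrd1 between the sides post-hCG and for Srxn1 between the sides without hCG, all open points.

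The comparison of sides asked what differs along the follicle wall. Post-hCG, 2 of the 8 members tested were higher on the ruptured side and 1 on the unruptured side, where 21.0% of 8585 genes were called (9.88% higher on the ruptured and 11.1% on the unruptured side). Hmox1 was lower on the ruptured side (-1.35, SE 0.18, FDR = 1.36e-06), and it passed in each of 19 alternatives, at -1.56 to -1.22. Gclm was higher on the ruptured side by 0.84 (SE 0.19, FDR = 0.0013), with 10 of 13 ruptured libraries above the unruptured median. On log2(TPM + 1) that difference was 0.44 (limma FDR = 0.27), on a scale where the median of all genes was -0.21. Gss was higher on the ruptured side by 0.34 (SE 0.11, FDR = 0.029), with 11 of 13 libraries above the unruptured median and none above the highest unruptured library. The Gss difference lay near the threshold. It stayed at 0.31 to 0.32 without unruptured replicate 2, 5 or 6 or ruptured replicate 11 (FDR = 0.052, 0.056, 0.057 and 0.051) and at 0.35 in the fit of all 4 groups (FDR = 0.051), and it was smaller with library totals only (0.18, FDR = 0.31) and on log2(TPM + 1) (0.24, limma FDR = 0.24).

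The remaining members did not pass between the sides post-hCG. Txnrd1 stood at 0.25 (FDR = 0.081; -0.13 on log2(TPM + 1)), Gpx1 at 0.25 (FDR = 0.11), Sod1 at 0.22 (FDR = 0.37) and Srxn1 at -0.41 (FDR = 0.2). Sod2 stood at -0.04 (SE 0.08, FDR = 0.81) in the counts, yet in TPM none of the 13 ruptured libraries reached the unruptured median, and limma on log2(TPM + 1) gave -0.31 (FDR = 0.023). The median of all genes was -0.21 on that scale and 0.011 in the counts. No member had TPM ranges that did not overlap between the sides post-hCG, where 1.13% of the 9888 genes did.

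Immune and theca markers had lower summed medians on the ruptured than on the unruptured sides. Hmox1, which macrophages express strongly, had lower medians there too. Summed over the 8 macrophage and other immune markers, TPM lay between 0.45 and 175 around a median of 32.8 on the putative unruptured side, between 0.08 and 37.3 around 1.23 on the putative ruptured side, between 1.27 and 105 around 14.9 on the unruptured side and between 0.21 and 4.43 around 0.91 on the ruptured side. Adgre1 and C1qb were at 0 in all ruptured post-hCG libraries. The 10 theca markers had medians of 774, 42.9, 356 and 8.82 TPM in the same order. Both lists were thus lowest on the ruptured side post-hCG, as Hmox1 was, and their part in its difference was not tested. Between the sides post-hCG 0 of the 8 immune markers passed the filter, so their own difference was not tested. Without hCG, where the immune medians were 32.8 and 1.23 TPM, Hmox1 did not pass in edgeR (-0.32, FDR = 0.22). Even so, 13 of the 14 putative ruptured libraries lay below its putative unruptured median. The 6 markers of heme-rich red blood cells, globins among them, summed to at most 2.92 TPM in any library.

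Without hCG a single member, Gss, passed between the sides. That is 1 of the 9 members tested, where 17.5% of 9063 genes were called (8.78% higher on the putative ruptured and 8.74% on the putative unruptured side). Gss was lower on the putative ruptured side (-0.40, SE 0.14, FDR = 0.043), with 11 of 14 libraries below the putative unruptured median. This difference too lay near the threshold. It stayed at -0.41 to -0.35 without putative unruptured replicate 11 (FDR = 0.075) or putative ruptured replicate 5 (0.07), 6 (0.054), 7 (0.067), 11 (0.061) or 14 (0.062). It was -0.42 without a filter on low counts (FDR = 0.052), -0.40 with the replicate number as a block (FDR = 0.073), -0.40 without the 3 putative unruptured libraries least like their group (FDR = 0.058) and -0.48 on log2(TPM + 1) (limma FDR = 0.078). Txnrd1 (-0.35, FDR = 0.095), Gpx1 (-0.37, FDR = 0.22), Hmox1 (-0.32, FDR = 0.22), Sod1 (0.28, FDR = 0.22), Gclc (0.23, FDR = 0.32), Sod2 (0.10, FDR = 0.66) and Gclm (-0.04, FDR = 0.89) did not pass, nor did Srxn1 (-0.27, FDR = 0.35), which was 0.15 on log2(TPM + 1). In the fit of all 4 groups Txnrd1 passed (-0.34, FDR = 0.045). TPM ranges of the sides overlapped for every member, as for all but 0.0303% of the 9888 genes. Acss2, which shares exonic bases with Gss, was 1.10 higher on the putative ruptured side (FDR = 0.0019), opposite to Gss. Between the sides post-hCG Acss2 stood at 0.37 (FDR = 0.12), in the same direction as Gss (0.34). Its part in these Gss differences was not tested.

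Whether the side difference itself changed with hCG was tested as the interaction of side and medium. 4 of the 9 members tested passed, where 8.66% of 10013 genes were called (4.09% with the ruptured side gaining and 4.56% losing). The difference between ruptured and unruptured sides shifted towards the ruptured side for Gclm (0.88, SE 0.24, FDR = 0.014), Gss (0.75, SE 0.19, FDR = 0.0059) and Txnrd1 (0.61, SE 0.19, FDR = 0.03), and away from it for Hmox1 (-1.03, SE 0.26, FDR = 0.0072). Hmox1 passed in each of 20 alternatives. Gclm and Txnrd1 missed the FDR when scaled by library totals (0.81, FDR = 0.053, and 0.51, FDR = 0.13) and on log2(TPM + 1) (0.60, limma FDR = 0.26, and 0.24, limma FDR = 0.61). Gpx1 (0.62, FDR = 0.11), Gclc (0.45, FDR = 0.39), Srxn1 (-0.14), Sod2 (-0.13) and Sod1 (-0.05) did not pass. These values use the same libraries as the comparisons of sides and of media and add no samples to them.

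Nqo1 (chr8:107388225-107403206, minus strand) was barely detected. It gave 0 to 15 counts per library, and 4 of 15 putative unruptured, 3 of 14 putative ruptured, 4 of 12 unruptured and 7 of 13 ruptured libraries had none. Its median was 0.41, 0.44, 0.56 and 0 TPM in these groups, the highest being 2.68 TPM in a putative unruptured library. Post-hCG its highest library had 0.35 TPM on the ruptured side and 1.05 TPM on the unruptured side. The filter left Nqo1 out of the main fit of every comparison, so no difference was tested there. Alternatives without a filter kept it. With hCG on the ruptured side, limma on unfiltered log2(TPM + 1) called 6 members against 5 with the filter, the added call being Nqo1, which was lower post-hCG. That call rests on the few counts above, so no size is given.

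The pathway around these members was followed through gene lists, beginning with the supply of cysteine. Slc7a11 and Slc3a2 encode the light and heavy chains of the cystine importer. With hCG Slc7a11 fell by 1.57 (SE 0.23, FDR = 1.5e-06) on the unruptured side and fell by 1.42 (SE 0.20, FDR = 5.33e-07) on the ruptured side, its medians going from 59.4 to 18.5 TPM and from 35.8 to 15.3 TPM. Slc3a2, which also pairs with other amino acid transporters, rose by 2.28 on either side (FDR = 1.16e-13 and 8.41e-14), its medians going from 103 to 496 TPM and from 148 to 716 TPM. From cystine import to the ligase, then, Slc7a11, Gclc and Gclm fell and Slc3a2 rose on both sides. Gsr, which regenerates glutathione, rose by 0.61 (FDR = 0.011) and 1.37 (FDR = 2.04e-05), while on the ruptured side Cbs, an enzyme on the way from methionine to cysteine, fell by 1.84 (FDR = 2.7e-07). Cbs had median counts of 26.5 per putative ruptured and 7 per ruptured library. It thus passed the filter through the control libraries, where it was higher, and the size of its fall is not firm. Of the 10 genes tested in this list beside the members, 5 rose and 2 fell on the unruptured side, and 6 rose and 2 fell on the ruptured side. Of all genes, 25.3% rose and 27.6% fell on the unruptured side, and 29.6% rose and 30.4% fell on the ruptured side.

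Glutathione transferases moved with hCG in both directions, and the other glutathione peroxidases fell or did not pass. Of the glutathione transferases 6 of 10 tested fell and 2 rose on the unruptured side, where 27.6% of all genes fell, and 6 of 9 fell and 2 rose on the ruptured side, where 30.4% fell, with a median of -0.70 on either side against -0.030 and -0.0012 for all genes. The largest falls were those of Gstm1 (-3.87, FDR = 5.85e-11, and -3.28, FDR = 3.57e-10) and Gstm2 (-3.57, FDR = 2.16e-08, and -2.82, FDR = 2.4e-08), from group medians of 516 to 966 TPM down to 57.8 to 92.5 TPM, although reads may be split between such close paralogs. Gsto1 and Mgst1 rose, by 1.06 and 0.59 on the unruptured and by 1.91 and 1.47 on the ruptured side. Of the other 4 glutathione peroxidases tested, 2 fell on the unruptured and 3 on the ruptured side and none rose. Gpx7 stood at -1.09 and -2.34 and Gpx8 at -0.81 and -1.09, all past the FDR, and Gpx4, which protects membrane lipids, at -0.17 (FDR = 0.34) and -0.47 (FDR = 0.0033).

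Thioredoxins and peroxiredoxins moved both ways. On the unruptured side 6 of 16 tested rose and 4 fell, and on the ruptured side 7 of 15 rose and 4 fell. Among all genes 25.3% rose and 27.6% fell on the unruptured side, and 29.6% rose and 30.4% fell on the ruptured side. Txn1, the partner of Txnrd1, rose by 0.52 (FDR = 0.002) and 0.46 (FDR = 0.0027), and Prdx1 by 0.41 (FDR = 0.012) and 0.66 (FDR = 4.57e-05). Prdx2, a cytosolic peroxidase that draws on thioredoxin, rose by 2.46 (FDR = 3.36e-15) and 2.49 (FDR = 8.96e-17), from medians of 332 and 324 TPM to 2162 and 1776 TPM. Txnip, which binds and inhibits thioredoxin, fell (-1.41, FDR = 0.00023, and -2.82, FDR = 4.53e-08), as did Prdx4, the peroxiredoxin of the endoplasmic reticulum (-1.18 and -1.96). Of the 5 other genes for removal of superoxide and peroxide, 3 fell on the unruptured and 4 on the ruptured side and none rose. These 5 genes are few, and the list was not tested as a set. Catalase (Cat) stood at -0.63 (FDR = 0.00039) and -1.27 (FDR = 4.42e-09).

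With hCG 25.3% of all genes rose and 27.6% fell on the unruptured side, and 29.6% rose and 30.4% fell on the ruptured side. Of 9 regulators tested, 3 rose and 2 fell on each side. Nfe2l2 itself fell by 0.44 (SE 0.10, FDR = 0.00025) on the unruptured side and fell by 0.71 (SE 0.10, FDR = 2.21e-07) on the ruptured side. Keap1 rose by 0.27 (FDR = 0.015) and 0.32 (FDR = 0.0027), Cul3, which ubiquitinates NRF2 together with KEAP1, fell (-0.73 and -0.65), and Bach1, a repressor of Hmox1, rose by 0.73 (FDR = 9.63e-06) and 0.40 (FDR = 0.03). Among other genes commonly listed as NRF2 targets, 9 of 17 tested rose and 3 fell on the unruptured side, and 6 of 16 rose and 4 fell on the ruptured side. Osgin1 rose by 3.23 and 4.21 and Idh1, a cytosolic source of NADPH, by 3.27 and 4.02. Osgin1 had a median of 3 counts per putative ruptured library, with 1 library at 0, so the size of 4.21 is not firm. Its other median counts were 17 per putative unruptured, 149.5 per unruptured and 124 per ruptured library. The median of Idh1 went from 186 to 1970 TPM on the unruptured side and from 186 to 2904 TPM on the ruptured side.

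Between the sides post-hCG, the counts for the same lists stand beside 9.88% of all genes higher and 11.1% lower on the ruptured side. Of other genes for glutathione synthesis, uptake and recycling 2 of 9 tested were higher there and 1 lower, led by Slc3a2 (0.73, FDR = 1.32e-05) and glutaredoxin Glrx (-0.65, FDR = 0.0068), and of the transferases Mgst1 was the 1 of 8 to pass (0.74, FDR = 5.58e-05). Lower on the ruptured side were 2 of 4 other glutathione peroxidases, 2 of 14 thioredoxins and peroxiredoxins, with Txnip at -1.10 (FDR = 0.015) and Prdx4 at -0.97 (FDR = 3.05e-05), and 3 of 5 other genes for superoxide and peroxide removal, with Sod3 at -1.29 (FDR = 5.26e-05), and these 3 lists had 0 genes higher there. Nfe2l2 stood at -0.34 (FDR = 0.0088) and Bach1 at -0.44 (FDR = 0.025), among 2 lower and 1 higher of 9 regulators. Of the other NRF2 targets 7 of 16 were lower and 2 higher, Idh1 being one of the latter (0.81, FDR = 1.34e-05). Without hCG these lists had 0 to 2 genes higher and 0 to 3 lower on the putative ruptured side, where 8.78% of all genes were higher and 8.74% lower.

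**Figure D3:**
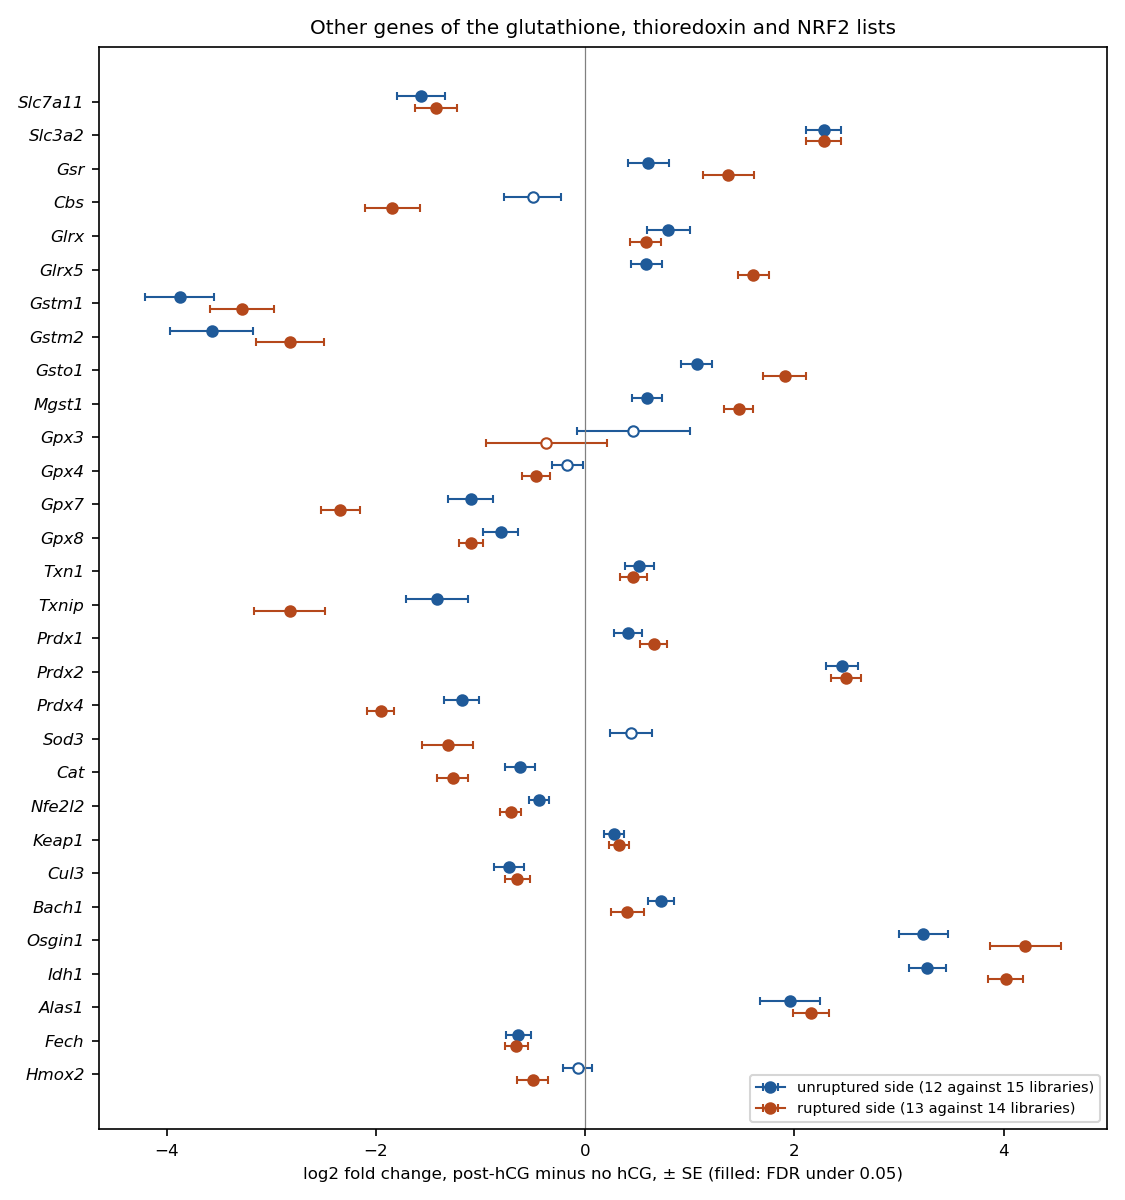
edgeR log2 fold changes ± SE, post-hCG minus no hCG, of 30 other genes of the pathway lists (y axis) on the unruptured (blue) and ruptured (orange) sides, filled where the FDR is under 0.05. Slc3a2, Prdx2, Osgin1, Idh1 and Alas1 lie right of 0, and Slc7a11, Gstm1, Gstm2, Txnip and Gpx7 lie left of 0 on both sides.

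Within groups the members varied together only loosely. After group means of log2(TPM + 1) had been subtracted, 40 of the 45 pairs of members had a Pearson r above 0 over the 54 libraries, with a median of 0.17. No such count was made for pairs of other genes, so whether it is high cannot be said. Nqo1 gave 0 to 15 counts per library, so its r values rest on few counts. The highest were Gss with Sod2 (0.50), Gss with Gpx1 (0.48) and Gclc with Gss (0.48), and the lowest was Gclm with Nqo1 (-0.24). Gclc and Gclm, subunits of a single enzyme, had an r of 0.06. All values come from the same 54 libraries, and the members' r with the log2 library total ran from -0.19 for Gclc to 0.42 for Sod1. Among 9879 other genes, the one most like each member by this measure was Ptp4a2 for Sod1 (0.79), Slc3a2 for Sod2 (0.78), Vat1 for Txnrd1 (0.77), Hn1 for Gpx1 (0.70), Pak1ip1 for Gss (0.70), RP23-162H6.1 for Hmox1 (0.67), Mrps23 for Gclc (0.64), Grasp for Gclm (0.59), Agt for Nqo1 (0.58) and March6 for Srxn1 (0.58). These are descriptions of 54 libraries and were not tested.

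**Figure D4:**
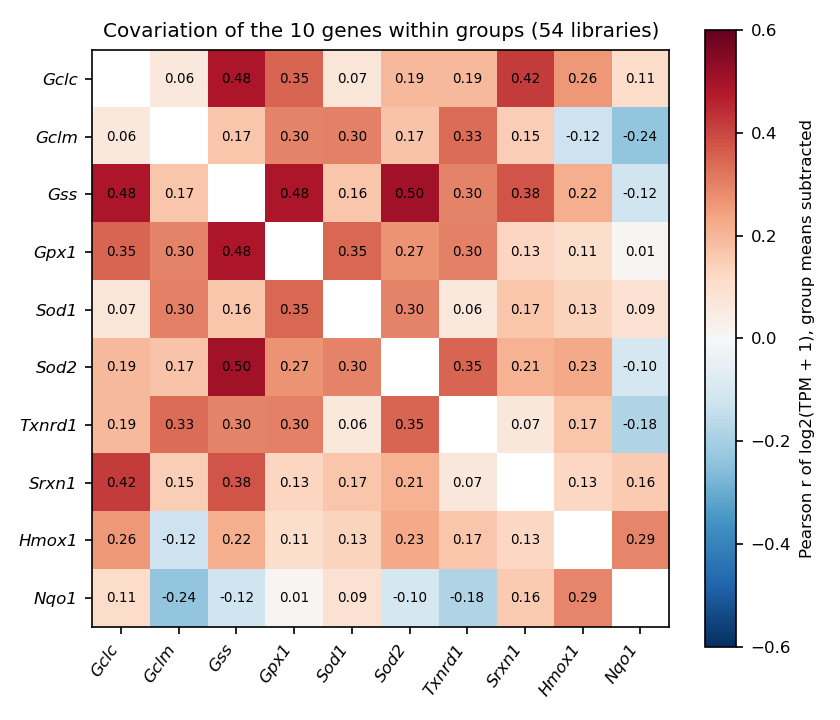
Pearson r between pairs of the 10 genes (both axes) over 54 libraries, from log2(TPM + 1) with group means subtracted. Gss has the highest values, with Sod2, Gpx1 and Gclc, and Nqo1 has most of the negative ones.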

How the data were processed

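RNA of each follicle side was amplified by Smart-Seq2 and made into Nextera XT libraries, which do not mark strand. The authors used HISAT2 (GRCm38) for alignment and ComBat-seq to correct counts for batch. The deposited tables hold estimated counts per gene (72.2% of nonzero values whole) and TPM, the authors' scaling of them by length and depth. In the study's methods the correction comes after alignment and before the conversion to TPM, but whether the deposited tables were made before or after it is not given in the sources used here, nor is the counting program. The submitters' processing notes also name Seurat 4.

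Counts were rounded, filtered with edgeR's filterByExpr and normalized by TMM. The filter asked for about 10 counts in a number of libraries set by the smallest group, and for 15 counts in all. The test was that of edgeR 4.0.16 under R 4.3.3 (robust quasi-likelihood F-test, FDR of 0.05 over all genes tested), using only the libraries of each of the 5 comparisons. Alternatives were DESeq2 1.42.0 (the tool the study used), RLE size factors, library totals only, other filters, thinned counts, limma 3.58.1 on log2(TPM + 1) or log2(TPM + 0.1), the replicate number as a block, all 4 groups in one fit, and leaving out, for each member, the libraries farthest from their group. The scripts were tested on simulated counts. Positions are from GENCODE M21 (GRCm38).

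The members and the gene lists were chosen with earlier results of these data known. Beside the members, the genes named were drawn by a rule. It took the 2 with the largest log2 fold change past the FDR in each list and comparison. It also took Nfe2l2, Keap1, Bach1, Slc7a11, Gsr, Txn1, Txnip, Prdx1, Cat and Gpx4, and the gene most like each member. Not every gene it took is described, Gpx3, Sesn2 and Pxdn being among those left out. Named outside this rule, after values were seen, were Acss2 and the immune markers Adgre1 and C1qb, the latter for being at 0.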

Additional observations from a re-analysis of the deposited data

Results flagged for a closer look

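For each of the following genes the ruptured minus unruptured difference itself changed with hCG (interaction in edgeR, FDR under 0.05). Among the members these were Hmox1 (-1.03), whose side difference went from -0.32 without hCG to -1.35 post-hCG, Gclm (0.88, from -0.04 to 0.84), Gss (0.75, from -0.40 to 0.34) and Txnrd1 (0.61, from -0.35 to 0.25).

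In the pathway lists the shift went towards the ruptured side for Glrx5, a mitochondrial glutaredoxin (1.02), for the glutathione transferases Mgst1 (0.88) and Gsto1 (0.84) and for Idh1 (0.75). It went away from that side for Xdh, xanthine dehydrogenase (-2.38), the transferases Gsta4 (-2.15) and Gstt1 (-1.81), extracellular superoxide dismutase Sod3 (-1.76), Txnip (-1.41), Cbs (-1.35), Gpx7 (-1.25), Prdx4 (-0.78), Cat (-0.65) and Pgd (-0.46). The value for Gstt1 rests on few counts, with medians of 13, 5.5, 2.5 and 0 per library on the putative unruptured, putative ruptured, unruptured and ruptured sides. With 8 of 13 ruptured libraries at 0, its size depends on the prior count. That for Xdh also rests on few counts, with medians of 15, 6, 36 and 3 in the same order. So does that for Cbs, with medians of 14, 26.5, 7.5 and 7.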

How the results depend on the processing

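Of 20 member differences past the FDR, 12 passed under each alternative run; of 857 member values under an alternative, 796 kept direction and side of the FDR, 40 lost the call, 4 gained it and 17, none of them called, changed sign. Without hCG 1 member passed between the sides, against 0 with no filter, in limma on either TPM scale or unfiltered, with the replicate block and without the 3 putative unruptured libraries least like their group (added after seeing the data), 2 in the fit of all 4 groups, and 0 to 1 when single libraries were left out. For the interaction 4 members passed, against 2 with library totals only and in limma on either TPM scale, and 1 in limma unfiltered. The promoter count was 3 genes, against 1 with the second form of the motif.

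Signs changed for Srxn1 between the sides without hCG (0.15 on log2(TPM + 1), filtered or not, and 0.20 on log2(TPM + 0.1)) and on the ruptured side with hCG (-0.33 and -0.55 on these scales, -0.22 with library totals only), for Txnrd1 between the sides post-hCG (-0.13 and -0.14 on these scales) and on the ruptured side with hCG (-0.16 with totals only), and for Sod1 with hCG (-0.013 unruptured and -0.16 ruptured, with totals only) and in the interaction (0.046 without the 3 libraries). With single libraries left out, Gclm ran from -0.10 to 0.0070 between the sides without hCG, Srxn1 from -0.037 to 0.17 on the ruptured side with hCG and Sod1 from -0.10 to 0.018 in the interaction.

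The median of all genes was 0.011 (sides post-hCG), -0.030 and -0.0012 (hCG, unruptured and ruptured) and -0.013 (interaction), but -0.14, -0.25, -0.33 and -0.11 with library totals alone and -0.21, 0.037, -0.14 and -0.19 on log2(TPM + 1). Genes higher and lower were 848 and 956 between the sides post-hCG, but 398 and 1823 with totals and 214 and 2166 on log2(TPM + 1). With hCG they were 2358 and 2573 unruptured (1451 and 3815 with totals, 2207 and 1623 on log2(TPM + 1)) and 2525 and 2590 ruptured (1372 and 4235, 1568 and 3005), and in the interaction 410 and 457 (218 and 635, 85 and 679). Between the sides without hCG they were 796 and 792, but 578 and 877 with totals, and limma called 1054 genes there against 1588. Same-numbered libraries of the groups compared did not deviate together (median r -0.10 to 0.05, best with their own number in 1 or 2 of 12 to 14). The numbers were therefore not used as pairs in the main fits. Sides of a single follicle need not deviate together, so whether same-numbered sides share a follicle stays unknown. A replicate block moved calls from 1588 to 1364, 1804 to 1731, 4931 to 4456, 5115 to 4973 and 867 to 968 in the 5 comparisons in the order given.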

Other observations

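Other lists near the members differed between the sides. Ugdh, which makes the UDP-glucuronate used for hyaluronan and conjugation, was lower on the ruptured side without hCG (-0.85, SE 0.19, FDR = 0.0014) and post-hCG (-1.48, SE 0.17, FDR = 5.13e-07), with group medians of 23.5, 12.4, 24.4 and 6.96 TPM on the putative unruptured, putative ruptured, unruptured and ruptured sides. Nqo2, a relative of Nqo1, was lower there as well (-0.90, FDR = 0.00086, and -0.65, FDR = 0.0081), at medians of 6.15, 3.25, 7.43 and 3.10 TPM. Cyba, a subunit of NADPH oxidases that immune cells also express, stood at -0.79 (FDR = 0.00023) and -0.62 (FDR = 0.0036). Xdh, an oxidant source, stood at -3.23 post-hCG (FDR = 2.65e-06), from a median of 2.66 to 0.18 TPM. Its median count post-hCG was 36 per unruptured and 3 per ruptured library. It passed the filter through the unruptured libraries, so the size of this difference is not firm. Sqstm1, which binds KEAP1, was higher on the ruptured side without hCG (0.49, FDR = 0.0051) and post-hCG (0.47, FDR = 9.76e-05).

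In the list of genes that make or break down heme, which also held the iron exporter Slc40a1, 3 of 11 tested rose and 1 fell with hCG on the unruptured side. On the ruptured side 3 of 10 rose and 3 fell, Slc40a1 among the latter. For all genes 25.3% rose and 27.6% fell on the unruptured side, and 29.6% rose and 30.4% fell on the ruptured side. Alas1, the first enzyme of heme synthesis, rose by 1.96 (FDR = 2.36e-06) and 2.16 (FDR = 2.88e-12), and Fech, the last, fell by 0.64 and 0.66. Hmox2, the constitutive relative of Hmox1, stood at -0.07 (FDR = 0.68) and -0.50 (FDR = 0.0035), and was 0.61 higher on the putative ruptured side without hCG (FDR = 0.0068). Of 15 oxidant sources listed, 1 to 3 passed the filter in each comparison.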
